A study of Mus musculus with 4 samples.

Results

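The caudal and posterior axis genes are 10 regulators of the primitive streak and tailbud of the mouse embryo: Cdx1, Cdx2, Cdx4, T, Wnt3, Wnt3a, Fgf8, Evx1, Mixl1 and Tbx6. They were matched by symbol, a rule that itself uses no expression value, although the genes were chosen with earlier results of these data known. All 10 were found among 55401 gene identifiers (GRCm38). Bulk RNA-seq was made of EB3, an embryonic stem cell line of the mouse, kept undifferentiated on gelatin with the cytokine LIF. There were 2 libraries of EB3-derived cells that express NUP98-HOXA9 (replicates 1 and 2), a leukaemia fusion of a nucleoporin and a Hox homeodomain protein. They were set against 2 libraries with the genotype label WT, 1 of parental EB3 cells and 1 of EB3-derived cells with an empty vector. All 4 samples share the line and its growth medium. The labels give neither the promoter of the construct nor whether the fusion replicates are separate clones or cultures. The p-values thus rest on the spread among these samples alone. That spread may be technical in the fusion group, and in the wild-type group it also holds the difference between parental and empty-vector cells. The only control for the vector is 1 library.

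As background, the posterior body forms from the primitive streak and then from the tailbud, where Wnt and FGF ligands keep progenitors in a caudal state. Cdx proteins are homeodomain factors that bind and activate Hox genes there, and their loss shortens and anteriorizes the axis. Wnt3 is needed in mouse to start the streak, while Wnt3a and Fgf8 act as ligands in the later streak and tailbud. T (Brachyury), Mixl1, Evx1 and Tbx6 are transcription factors of streak and nascent mesoderm.

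In the fusion cells 2 of the 8 tested genes rose, against 2.83% of all tested genes: Cdx1 by 96.5-fold and Wnt3a by 12.8-fold. Both calls were lost when only 1 control was used, and Wnt3a had 3 and 4 counts in the wild-type libraries. Cdx2 was also higher in both fusion libraries (8.4-fold by the fit) but did not pass the threshold, and Cdx4 stayed at a few reads in each library. The streak factor T had the opposite sign, 3.88-fold lower in the fusion cells by the fit, and did not pass either. Wnt3, Fgf8, Mixl1 and Tbx6 did not pass, and Evx1 was too low to test.

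The promoter stretches of 5 of these genes are shown because they pair genes of like function that differed in level, Cdx2 with Cdx4 and Wnt3a with Wnt3, and because T is known in mouse as a direct Wnt target. Each is the RefSeq (GRCm38.p6) sequence from 250 to 26 bases before the annotated start, 225 bases in all, read 5′ to 3′ on the gene's strand. They come from chr5:147307275-147307499 (minus strand) for Cdx2, chrX:103321148-103321372 (plus) for Cdx4, chr11:59290777-59291001 (minus) for Wnt3a, chr11:103773925-103774149 (plus) for Wnt3 and chr17:8434173-8434397 (plus) for T. Capitals mark matches to the motifs described next.
Cdx2: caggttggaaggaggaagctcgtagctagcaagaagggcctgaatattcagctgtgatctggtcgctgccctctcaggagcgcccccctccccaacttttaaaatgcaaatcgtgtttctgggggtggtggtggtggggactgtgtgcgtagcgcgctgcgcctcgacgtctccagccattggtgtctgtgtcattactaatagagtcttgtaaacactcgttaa
Cdx4: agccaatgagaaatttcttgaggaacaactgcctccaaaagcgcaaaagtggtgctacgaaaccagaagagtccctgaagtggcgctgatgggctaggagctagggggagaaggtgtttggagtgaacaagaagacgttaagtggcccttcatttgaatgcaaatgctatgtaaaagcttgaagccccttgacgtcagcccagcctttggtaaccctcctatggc
Wnt3a: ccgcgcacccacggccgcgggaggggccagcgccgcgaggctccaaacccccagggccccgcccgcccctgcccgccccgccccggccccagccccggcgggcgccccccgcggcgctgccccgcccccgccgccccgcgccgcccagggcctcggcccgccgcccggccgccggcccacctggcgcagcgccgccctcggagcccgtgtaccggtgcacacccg
Wnt3: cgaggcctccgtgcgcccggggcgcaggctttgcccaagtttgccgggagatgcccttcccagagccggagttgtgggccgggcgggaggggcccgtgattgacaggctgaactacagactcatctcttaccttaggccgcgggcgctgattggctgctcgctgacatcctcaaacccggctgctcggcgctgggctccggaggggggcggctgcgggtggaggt
T: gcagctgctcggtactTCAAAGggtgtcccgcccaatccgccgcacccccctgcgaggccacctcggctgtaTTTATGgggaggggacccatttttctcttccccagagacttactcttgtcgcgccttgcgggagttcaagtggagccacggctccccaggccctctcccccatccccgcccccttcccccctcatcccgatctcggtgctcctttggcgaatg

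A window was at hand for 7 of the 10 genes: those 5, Evx1 and Tbx6. Each was searched on both strands for 5 motifs: TTTATG (CDX), CTTTGA (LEF/TCF, the nuclear end of Wnt signalling), GGTGTGA (T-box core), AGGTCA (retinoic acid receptor core) and TGATTNAT (HOX with PBX). None of these overlaps another in the matches found. T held 1 CDX match, 178 to 173 bases before the start, and 1 LEF/TCF match in reverse orientation, 234 to 229 bases before it. Tbx6 held 1 HOX-PBX match, 250 to 243 bases before its start. The letters of the 5 motifs were found in none of the other 5 windows. Among 32851 RefSeq windows of the same length, 9.88% held the CDX letters, 12.9% the LEF/TCF letters, 3.02% the T-box letters, 12.8% the retinoic acid letters and 2.6% the HOX-PBX letters. The Wnt3a stretch was 88.4% G or C and the Wnt3 stretch 68.9%, against a median of 52% over all windows. The stretches of Cdx2 (53.8%) and Cdx4 (49.3%) were close to that median.

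The libraries held 19820401 and 21151729 expected counts for fusion replicates 1 and 2, and 19957932 and 19021386 for the parental and empty-vector cells. Hoxa9 stood at 190 and 127 CPM (counts scaled to library size with TMM factors) in the fusion libraries. It had 0 counts in both wild-type libraries, so Hoxa9 separated the libraries as labelled. Nup98 stood at 310 and 296 CPM in fusion and 216 and 218 CPM in wild-type cells (log2 0.48, adjusted p = 0.161, edgeR). Gene counts alone cannot tell reads of the construct from reads of the cells' own Hoxa9 or Nup98. All 14 embryonic stem cell markers on a fixed list were tested, and only Tbx3 passed, higher in fusion cells (4 higher and 1 lower in DESeq2). All 40 values of the 10 genes lay within 0.005 of a whole number, so RSEM, the program that made the counts, gave these genes no fractions of reads. In bulk RNA, more cells that express a gene and more RNA per cell cannot be told apart.

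Of the 10 genes, 8 had enough reads to be tested. Of these 2 rose (Cdx1 and Wnt3a) and 0 fell at a Benjamini-Hochberg adjusted p of 0.05 in edgeR's quasi-likelihood test of 16511 genes. The background was 2.83% of all tested genes higher and 0.581% lower. At an unadjusted p of 0.05, 3 were higher (Cdx1, Cdx2 and Wnt3a), against 12.7% of all tested genes, and 1 was lower (T), against 7.41%. DESeq2 called those same genes, 3 higher and 1 lower, against 5.28% and 2.45% of its 17642 genes. Limma on TPM called 1 higher and 0 lower, against 1.66% and 0.277% of its 16583 genes. The counts given below for other lists under these rules are to be read against the same shares. Both fusion libraries lay above both wild-type libraries for 3 of the 8 genes (Cdx1, Cdx2 and Wnt3a), against 27.1% of all tested genes. They lay below for another 3 (T, Wnt3 and Mixl1), against 24.2%. The median log2 fold change over the 8 genes was 0.01, and over all tested genes 0.00. In wild-type cells only T, Wnt3, Fgf8 and Mixl1 reached a mean of 1 CPM. Wnt3a and Cdx2 passed the filter on low counts only with their fusion libraries, where they were high.

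**Figure D1:**
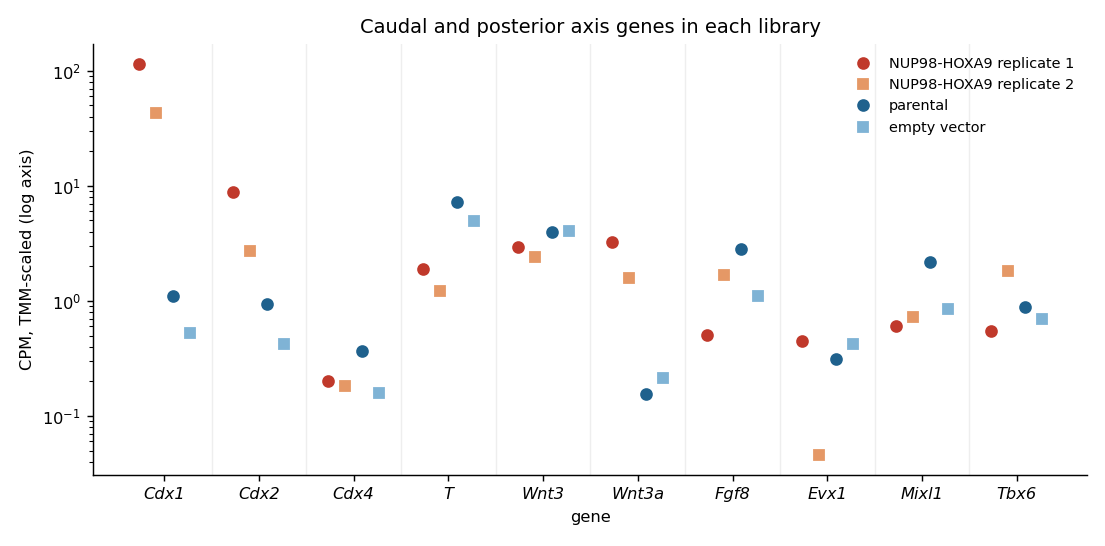
CPM of the 10 caudal and posterior axis genes on a log axis, 1 point for each library, with the NUP98-HOXA9 libraries left of the wild-type libraries within each gene. Cdx1, Cdx2 and Wnt3a lie higher in both fusion libraries, T, Wnt3 and Mixl1 lie lower, and the points of Cdx4, Fgf8, Evx1 and Tbx6 overlap.

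Cdx1 (ENSMUSG00000024619, chromosome 18, 61018862 to 61036199, minus strand, 3 exons) is the Cdx gene known as a direct target of both retinoic acid and Wnt signalling in the mouse embryo. It had 2305 and 936 counts in fusion replicates 1 and 2, against 21 in parental and 10 in empty-vector cells. Per length, these were 102 and 38.8 TPM (abundance scaled for transcript length and library size) in the fusion cells and 0.87 and 0.46 TPM in the wild-type cells. Every fusion value lay far above every wild-type value, and replicate 1 was the higher of the fusion libraries. By TPM Cdx1 ranked 1619th and 3988th among all genes in the fusion libraries, and 14509th and 16455th in the parental and empty-vector libraries. The mean was 79.1 ± 51.5 CPM in fusion and 0.812 ± 0.398 CPM in wild-type cells (SD, n = 2 each). Its log2 fold change was 6.59 (SE 0.63, adjusted p = 0.00847, edgeR). Against 1 control alone in a fit with 3 groups the fold stayed of that order but the call was lost: log2 7.20 (adjusted p = 0.0917) against the empty vector and 6.16 (adjusted p = 0.0947) against the parental line. It was also lost without the parental library (adjusted p = 0.130) or without the empty-vector library (adjusted p = 0.129), but not without a fusion library. The log2 fold change was 5.70 without fusion replicate 1 (adjusted p = 0.0194) and 7.14 without fusion replicate 2 (adjusted p = 0.00470).

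Cdx2 (ENSMUSG00000029646, chromosome 5, 147300805 to 147307270, minus strand, 3 exons) acts in posterior axis growth, and also in the trophectoderm and the intestine. Its counts were 177 and 59 in the fusion libraries and 18 and 8 in the parental and empty-vector libraries. The groups did not overlap, but the fusion libraries differed 3.3-fold from each other. The means were 5.78 ± 4.37 CPM in fusion and 0.681 ± 0.363 CPM in wild-type cells (SD, n = 2 each). Its log2 fold change of 3.07 (SE 0.73) gave an adjusted p of 0.0709. Cdx2 passed in DESeq2 (adjusted p = 0.00131), with no filter on low counts (adjusted p = 0.000171) and without fusion replicate 2 (log2 3.69, adjusted p = 0.0381). It did not pass in the other 10 alternatives: the log2 fold change was 1.96 without fusion replicate 1 (adjusted p = 0.302), and 1.66 by limma on log2(TPM + 1) (adjusted p = 0.130).

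Cdx4 (ENSMUSG00000031326, X chromosome, 103321398 to 103330592, plus strand, 3 exons) is the member of the family that is limited to the posterior embryo. It had 4 and 4 counts in the fusion libraries and 7 and 3 in the parental and empty-vector libraries. At most 0.26 TPM was reached in any library. The ratio of summed counts, fusion over wild type, was 0.727 (95% exact interval 0.249 to 2.05, counting error only), and a change of Cdx4 within that interval was not detectable at this depth. Summed over the 3 Cdx genes, the level was 108 and 40.8 TPM in the fusion libraries and 1.7 and 0.86 TPM in the wild-type libraries. Cdx1 made up 94.3% and 95% of that sum in the fusion libraries, against 51.2% and 53.5% in the parental and empty-vector libraries.

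Among the ligands, Wnt3a (ENSMUSG00000009900, chromosome 11, 59248033 to 59290752, minus strand, 4 exons) had 65 and 35 counts in the fusion libraries, against 3 in parental and 4 in empty-vector cells. The levels were 1.79 and 0.9 TPM in fusion and 0.08 and 0.11 TPM in wild-type cells. Both fusion values were above both wild-type values, yet all 4 were low. The log2 fold change was 3.67 (SE 0.66, adjusted p = 0.0366, edgeR), and the ratio of summed counts was 13 (95% exact interval 6.07 to 33.1, counting error only). Without fusion replicate 1 the adjusted p was 0.178 (log2 3.07), and without the parental or the empty-vector library it was 0.0791 (log2 3.46) or 0.0585 (log2 3.88). Limma on log2(TPM + 1), which understates the fold of low genes, gave an adjusted p of 0.199.

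Wnt3 (ENSMUSG00000000125, chromosome 11, 103774150 to 103817957, plus strand, 5 exons) lay in a narrow range. Its counts were 59 and 53 in the fusion libraries and 76 and 76 in the parental and empty-vector libraries. Both fusion values were lower, with a log2 fold change of -0.57 (SE 0.40, adjusted p = 0.496, edgeR). Wnt3a therefore supplied 55.2% and 42.3% of the summed TPM of Wnt3 and Wnt3a in the fusion libraries, against 4.32% and 5.37% in the parental and empty-vector libraries.

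Fgf8 (ENSMUSG00000025219, chromosome 19, 45736798 to 45742915, minus strand) had 10 and 37 counts in the fusion libraries, against 54 and 21 in the parental and empty-vector libraries. The groups overlapped. The log2 fold change was -0.83 (SE 0.72, adjusted p = 0.595, edgeR). It ranged from -1.96 without fusion replicate 2 to -0.22 without fusion replicate 1 and -0.04 without the parental library.

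**Figure D2:**
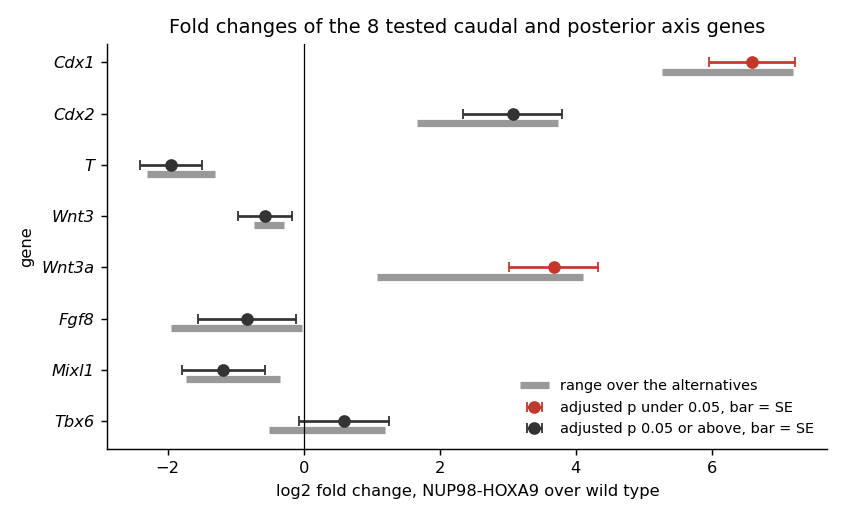
Log2 fold change of the 8 tested genes, fusion over wild type, with the SE as a bar and, in grey, the range over the alternative settings. Cdx1 and Wnt3a, in red, are past the threshold, and the grey range of Tbx6 is the only one that spans 0.

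Of the transcription factors of streak and mesoderm among the 10 genes, T (ENSMUSG00000062327, chromosome 17, 8434423 to 8442496, plus strand, 8 exons) was the most abundant in wild-type cells. It had 38 and 27 counts in the fusion libraries and 138 and 94 in the parental and empty-vector libraries. These were 1.43 and 1.37 TPM in fusion and 5.46 and 4.39 TPM in wild-type cells, with no overlap between the groups. The log2 fold change was -1.96 (SE 0.45, adjusted p = 0.0664, edgeR). T passed in DESeq2 (adjusted p = 0.00603) and with no filter on low counts (adjusted p = 0.00286). The RSEM length of T, an average over its annotated transcripts weighted by their estimated use, was 2046 and 1446 bases in the fusion libraries and 1839 and 1714 bases in the wild-type libraries. The most unlike lengths were thus those of the fusion libraries, which rest on the fewest reads.

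Mixl1 (ENSMUSG00000026497, chromosome 1, 180693043 to 180697034, minus strand, 2 exons), a paired-type homeobox factor of mesendoderm, had 12 and 16 counts in the fusion libraries and 42 and 16 in the parental and empty-vector libraries. After scaling, the fusion libraries were lower (0.602 and 0.73 CPM) than the wild-type libraries (2.19 and 0.849 CPM), though only just below the empty vector. Its log2 fold change was -1.18 (SE 0.61, adjusted p = 0.344, edgeR), and -0.36 without the parental library.

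Tbx6 (ENSMUSG00000030699, chromosome 7, 126781483 to 126785560, plus strand, 8 exons) directs paraxial mesoderm away from a neural fate. It had 11 and 40 counts in the fusion libraries and 17 and 13 in the wild-type libraries. Fusion replicate 2 was the highest and replicate 1 the lowest after scaling, so that the groups overlapped (log2 0.60, SE 0.66, adjusted p = 0.693, edgeR). Without fusion replicate 2 the sign turned, to log2 -0.51.

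Evx1 (ENSMUSG00000005503, chromosome 6, 52313498 to 52318378, plus strand, 3 exons), an even-skipped homologue of the posterior streak, lies beside the HOXA cluster. It had 9 and 1 counts in the fusion libraries and 6 and 8 in the wild-type libraries, and was not tested. The ratio of summed counts was 0.649 (95% exact interval 0.258 to 1.57, counting error only). Its antisense neighbour Evx1os overlaps it by 1335 bases and had 2 and 0 counts in the fusion libraries, and 1 and 2 in the wild-type libraries. The sources used here do not give the strand setting of the counting, so reads from the shared stretch cannot be assigned. The summed level of T, Mixl1, Tbx6 and Evx1 was 2.56 and 3.62 TPM in the fusion libraries and 7.66 and 5.8 TPM in the wild-type libraries. T alone gave 1.43 and 1.37 TPM of this in fusion and 5.46 and 4.39 TPM in wild-type cells, so the wild-type sums were mostly T.

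**Figure D3:**
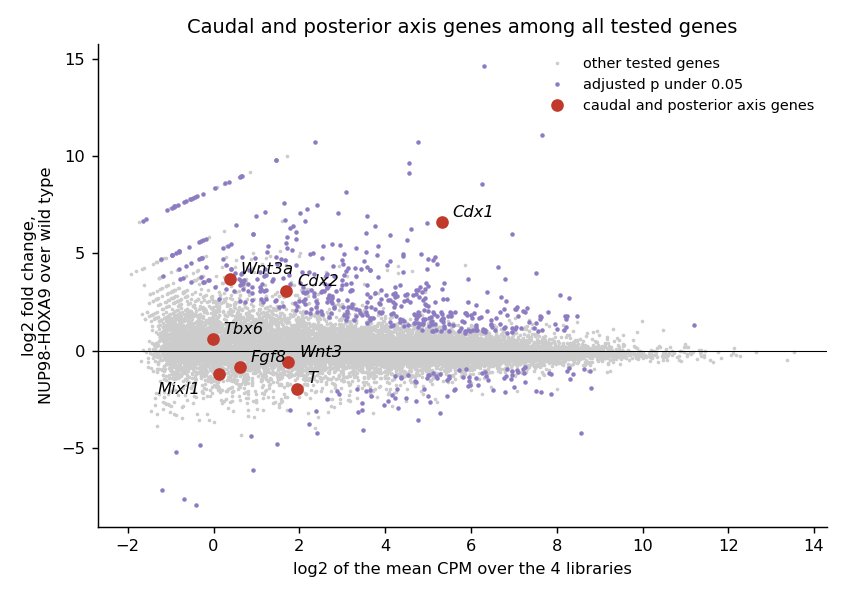
Log2 fold change against the log2 of the mean CPM over the 4 libraries for all 16511 tested genes, with genes past the adjusted p threshold in violet and the 8 tested caudal and posterior axis genes in red. Only Cdx1 combines a high mean level with a large fold change, while the other 7 lie at a mean of a few CPM or less.

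The libraries within each group also differed, and with 1 library a side these pairs have no test. Between fusion replicates 2 and 1, 4 of the 7 genes that reached 1 CPM were at least 2-fold apart, against 10.3% of 15387 genes. That share covers genes of all levels from 1 CPM and was 6.39% at a floor of 5 CPM. Of the 7 genes only Cdx1 and Cdx2 reached 5 CPM in a fusion library. Cdx1 (0.369 times replicate 1, 95% exact interval 0.342 to 0.399) and Cdx2 (0.303 times, 0.222 to 0.409) were lower in replicate 2. Fgf8 (3.37 times, 1.64 to 7.59) and Tbx6 (3.31 times, 1.67 to 7.15) were higher there. Wnt3a stood at 0.49 times (0.315 to 0.75), and with the prior count that shrinks ratios of low counts it was just under 2-fold. T (0.646 times, 0.380 to 1.09) and Wnt3 (0.817 times, 0.553 to 1.20) had ratios under 1 as well, with intervals that reach past it, and Evx1, under 1 CPM in both, stood at 0.101 times (0.00231 to 0.729). These intervals cover counting error only.

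Between the empty-vector and parental libraries, 2 of the 5 genes at 1 CPM were at least 2-fold apart, against 8.74% of 14719 genes. Here too the share covers genes of all levels from 1 CPM, and it was 5.41% at a floor of 5 CPM. Of the 5 genes only T reached 5 CPM in a wild-type library. Fgf8 was 0.396 times (95% exact interval 0.227 to 0.667) and Mixl1 0.388 times (0.204 to 0.705) the parental level in the empty-vector library. T was 0.694 times (0.528 to 0.908) and Wnt3 1.02 times (0.731 to 1.42). Cdx1, at 0.485 times (0.204 to 1.08), could not be told from equal at this depth.

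By a fixed measure of likeness, the Euclidean distance between centred log2(CPM + 0.5) values over the 4 libraries, the genes nearest to Cdx1 among 13197 were Aldh1a2 (distance 0.675), Hoxa7 (0.895) and Hoxa5 (0.953). Aldh1a2, the main retinoic acid-making enzyme of the embryo, stood at 378 and 109 CPM in the fusion libraries and 3.59 and 4.14 CPM in the wild-type libraries. By the fit the folds were 62.9 for Aldh1a2, 75.6 for Hoxa7 and 801 for Hoxa5, against 96.5 for Cdx1. Hoxa5 had 0 and 2 counts in the parental and empty-vector libraries, so the added 0.5 CPM shrinks its contrast. Nearest to Wnt3a were Tcf12 (0.0851), an E-protein, Nrip1 (0.118), a nuclear receptor corepressor, and Plac9b (0.129). Their folds by the fit were 4.14, 4.87 and 4.77, against 12.8 for Wnt3a. The added 0.5 CPM also shrinks the contrast of Wnt3a, which stood at 0.156 and 0.212 CPM in wild-type cells. All these likenesses are over 4 libraries and are given as a description. Next to Cdx1 on chromosome 18, Pdgfrb begins 8951 bases away and also rose, at 44.6 and 35.5 CPM in fusion and 5.26 and 5.2 CPM in wild-type cells (log2 2.94, SE 0.26, adjusted p = 0.00844, edgeR). Slc6a7, 4640 bases away on the other side, did not pass (log2 0.91, adjusted p = 0.304). Beside Wnt3a, Wnt9a at 16176 bases (log2 0.59, adjusted p = 0.469) and Arf1 at 19763 bases (log2 0.18, adjusted p = 0.699) did not pass.

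**Figure D4:**
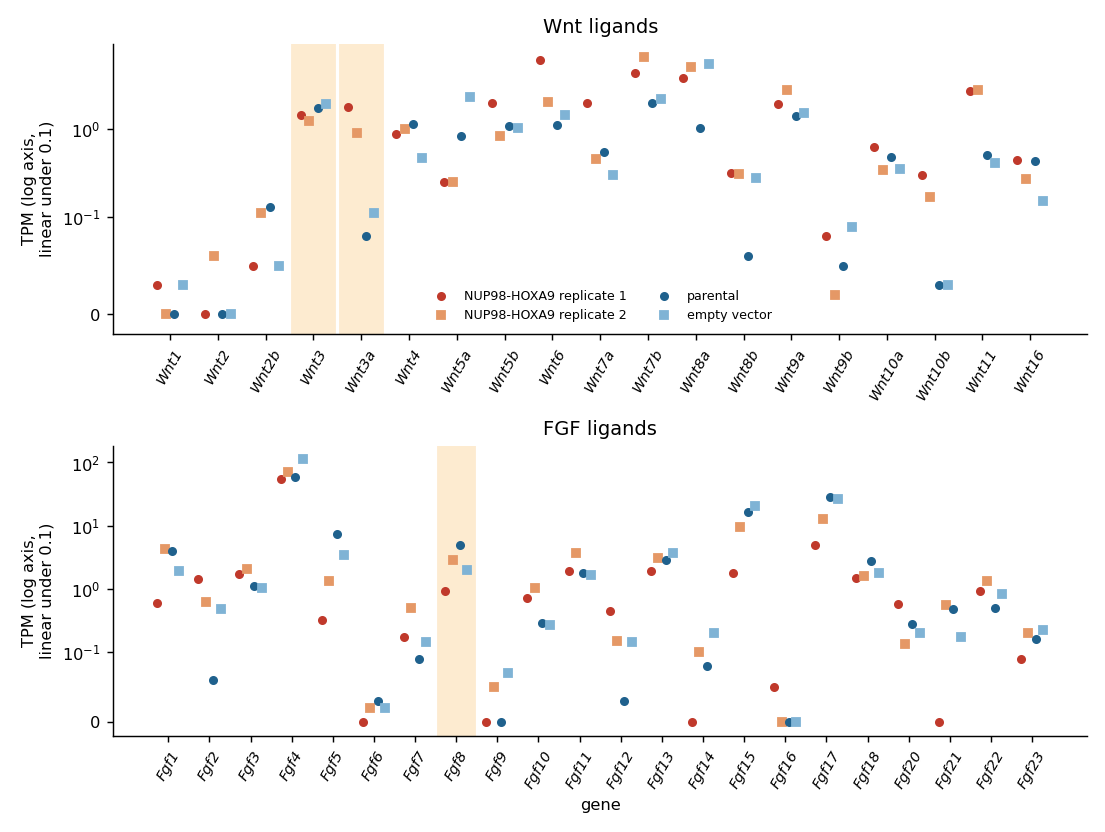
TPM of the 19 Wnt ligand genes (above) and the 22 FGF ligand genes (below) in each library, on an axis that is logarithmic above 0.1 TPM and linear below it, with Wnt3, Wnt3a and Fgf8 shaded. Wnt3a and Wnt11, which passed the threshold, stand higher in both fusion libraries. So do other Wnt ligands that did not pass, such as Wnt6, Wnt7b and Wnt9a. Wnt3 and Wnt5a, which did not pass either, stand lower in both fusion libraries. Fgf4 is the most abundant FGF ligand in all 4 libraries.

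Of the 19 Wnt ligand genes 13 were tested, and Wnt11 rose beside Wnt3a while none fell (DESeq2 called 3 higher and 1 lower, and limma on TPM called none; 4 were higher and 1 lower at an unadjusted p of 0.05). Wnt11, a ligand of non-canonical signalling, stood at 3.36 and 3.01 CPM in fusion and 0.573 and 0.477 CPM in wild-type cells (log2 2.58, SE 0.48, adjusted p = 0.0396, edgeR). The Wnt11 call was lost in limma, against either control alone and without any 1 of the 4 libraries (adjusted p = 0.0750 to 0.148). By mean TPM, Wnt3a ranked 7th of the 19 in fusion cells, at 1.34 ± 0.63 TPM, and 14th in wild-type cells, at 0.095 ± 0.021 TPM (SD, n = 2 each). Wnt3 ranked 8th in fusion cells, at 1.34 ± 0.16 TPM, and 3rd in wild-type cells, at 1.85 ± 0.12 TPM. In the fusion cells Wnt3 and Wnt3a did not differ beyond their spread.

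Of 16 tested genes for Wnt secretion and reception, Porcn and Ror2 rose and none fell (DESeq2 called 3 higher and 1 lower). Both calls were lost without fusion replicate 1 (Porcn adjusted p = 0.0502, Ror2 adjusted p = 0.102), and that of Ror2 against the empty vector alone (adjusted p = 0.0517). Porcn, the enzyme that lipid-modifies Wnt proteins, stood at 108 and 79.7 CPM in fusion and 21.7 and 26.6 CPM in wild-type cells (adjusted p = 0.0133, edgeR). Ror2, a receptor for Wnt5a, stood at 66.7 and 44.8 CPM in fusion and 11.7 and 16.7 CPM in wild-type cells (adjusted p = 0.0233, edgeR). Wnt5a itself was lower without passing, at 0.852 and 0.73 CPM in fusion and 2.34 and 5.78 CPM in wild-type cells (log2 -2.35, adjusted p = 0.0797, edgeR). None of 11 tested genes that Wnt signalling is known to induce passed in edgeR, though 4 had an unadjusted p under 0.05, 2 in each direction (background 12.7% higher and 7.41% lower), and DESeq2 called 1 higher and 1 lower (background 5.28% and 2.45%). With library totals in place of TMM, 1 passed as higher. The highest of them by mean CPM were Ccnd1, with 79.7 and 87.3 CPM in fusion and 123 and 251 CPM in wild-type cells (adjusted p = 0.104), and Tcf7, with 36.7 and 58 CPM in fusion and 91.8 and 73.8 CPM in wild-type cells (adjusted p = 0.149).

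None of the 13 tested FGF ligand genes passed in edgeR, while 5 had an unadjusted p under 0.05 (2 higher and 3 lower), DESeq2 called 3 lower and limma none. With DESeq2's size factors 1 passed as lower. Their median log2 fold change was -0.55, against 0.00 over all tested genes. Fgf8 ranked 8th of the 22 in fusion cells, at 1.88 ± 1.35 TPM, and 5th in wild-type cells, at 3.42 ± 2.07 TPM (SD, n = 2 each). Its close relative Fgf17 stood at 4.91 and 12.4 CPM in fusion and 31.7 and 27.4 CPM in wild-type cells (log2 -1.77, adjusted p = 0.078). Fgf4, the main FGF ligand of embryonic stem cells, stood at 109 and 137 CPM in fusion and 129 and 231 CPM in wild-type cells (adjusted p = 0.356). Of the 13 genes of FGF reception and response, Fgfr3 and Etv4 rose and none fell, and DESeq2 and limma called both too. Both calls were lost against the parental line alone and without fusion replicate 1. Fgfr3, a receptor, stood at 12 and 8.62 CPM in fusion and 1.61 and 0.796 CPM in wild-type cells (adjusted p = 0.0259, edgeR). Etv4, a transcription factor that FGF signalling induces, stood at 200.1 and 129 CPM in fusion and 51.3 and 32.5 CPM in wild-type cells (adjusted p = 0.0255, edgeR).

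Among 14 tested genes of the streak and paraxial mesoderm, which exclude the 10, Pdgfra and Foxa2 rose and none fell (6 higher and 2 lower at an unadjusted p of 0.05; 4 and 1 in DESeq2). Pdgfra, a growth factor receptor also used by primitive endoderm, stood at 14.6 and 26.7 CPM in fusion and 0.99 and 1.22 CPM in wild-type cells (log2 4.22, adjusted p = 0.00863, edgeR). Foxa2, a forkhead factor of streak and endoderm, stood at 3.81 and 2.1 CPM in fusion and 0.26 and 0.106 CPM in wild-type cells (log2 3.96, adjusted p = 0.0324, edgeR), but not in limma, against either control alone, without fusion replicate 1 (adjusted p = 0.144) or without the empty-vector library (adjusted p = 0.0613). Of the 18 tailbud genes, all tested, Wnt11 rose and none fell, whereas DESeq2 called 5 higher and 4 lower. Their median log2 fold change was 0.07. The ParaHox and Evx genes outside the 10 were low: Gsx2 stood at 0.802 and 1.05 CPM in fusion and 1.2 and 0.159 CPM in wild-type cells (adjusted p = 0.825), and Pdx1, the coding gene next to Cdx2, had under 1 CPM in every library. Of 8 tested T-box genes, T and Tbx6 among them, Tbx3 rose, at 523 and 418 CPM in fusion and 47.6 and 82.5 CPM in wild-type cells (adjusted p = 0.00863, edgeR), and none fell (2 were lower at an unadjusted p of 0.05, and 1 in DESeq2).

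**Figure D5:**
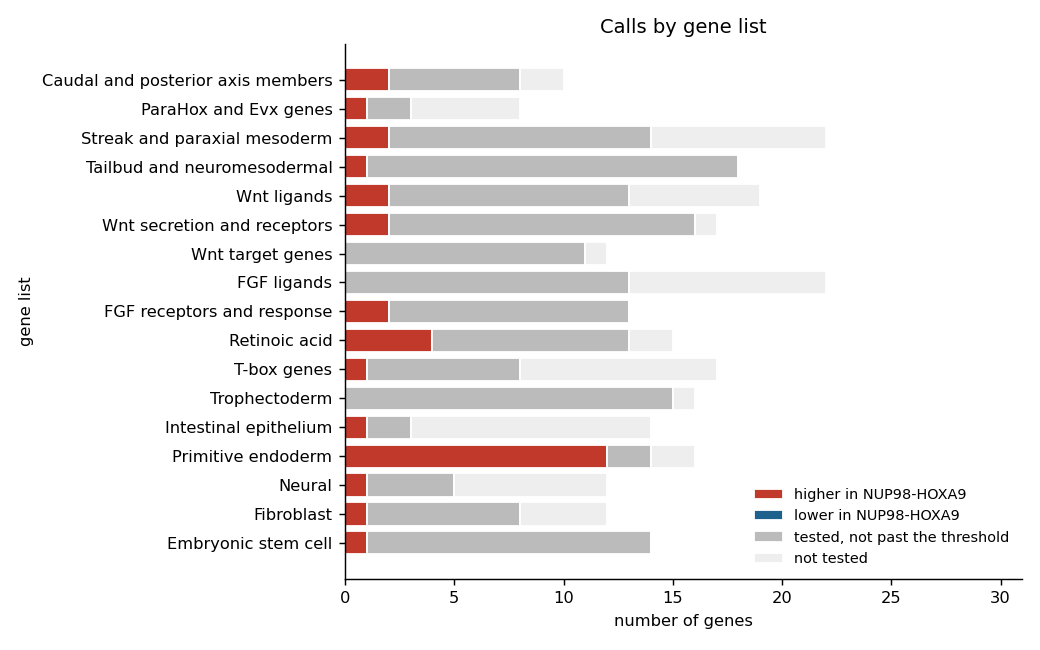
Number of genes in each list that were higher in fusion cells, lower, tested without passing, or not tested, in edgeR. No gene of any of the 17 lists was called lower, and primitive endoderm has the longest red bar (12 of 14 tested).

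Genes of other pathways and cell types moved beside Cdx1. In the retinoic acid list 4 of 13 tested genes rose and none fell (9 higher and 0 lower at an unadjusted p of 0.05, and likewise in DESeq2). Besides Aldh1a2 these were Rarb, a receptor that retinoic acid induces (15.1 and 7.61 CPM in fusion, 0.156 and 0.371 CPM in wild-type cells), Dhrs3, which reduces retinaldehyde (32 and 13.5 CPM in fusion, 1.09 and 1.22 CPM in wild-type cells), and Stra6, the retinol carrier (7.52 and 3.92 CPM in fusion, 0.313 and 0.53 CPM in wild-type cells). The Aldh1a2 call was lost with no filter, against either control alone and without the parental or the empty-vector library (adjusted p = 0.194 to 0.407). That of Stra6 was lost in limma, against the empty vector alone and without fusion replicate 1 (adjusted p = 0.0707 to 0.0988). Of 14 tested primitive endoderm markers 12 rose, among them the endoderm factors Sox17, Gata6 and Sox7 and the endocytic receptor Cubn, and 8 to 13 rose over the alternative settings. Gata6 stood at 20.6 and 26 CPM in fusion and 0.469 and 0.212 CPM in wild-type cells, whereas Cubn differed between the fusion replicates, at 7.27 and 82.2 CPM, against 0.886 and 0.849 CPM in wild-type cells. The Cubn call was lost in 7 of 13 alternatives, and that of Sox17 without fusion replicate 1 (adjusted p = 0.0537). The list summed to 650 and 581 TPM in the fusion libraries and 158 and 175 TPM in the wild-type libraries. No marker of that list was at 0 counts in all 4 libraries. Only 7 of the 14 tested reached a mean of 1 CPM in wild-type cells. Sox17, Gata6, Sox7, Foxa2 and Rarb had under 10 counts in each wild-type library. Like Wnt3a and Cdx2, they passed the filter on low counts only with their fusion libraries, as did Wnt11, Stra6, Hoxa5, Hoxa7 and Hoxa9. The part of the primitive endoderm list in the values of Cdx1, Cdx2 and Wnt3a was not tested, nor was that of the retinoic acid genes.

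Cdx2 is also a trophectoderm marker, and none of the 15 tested genes of that list, Cdx2 included, passed in edgeR (7 higher at an unadjusted p of 0.05, with a background of 12.7%; 3 higher in DESeq2, with a background of 5.28%; 2 higher with DESeq2's size factors, and none in limma). The list summed to 275 and 175 TPM in the fusion libraries and 176 and 89.9 TPM in the wild-type libraries, so that the groups overlapped. Its highest genes by mean CPM were Tfap2c, at 42.8 and 82.9 CPM in fusion and 61 and 67.7 CPM in wild-type cells (adjusted p = 0.967), and Krt8, at 151 and 58.1 CPM in fusion and 89.9 and 20.6 CPM in wild-type cells (adjusted p = 0.524). The median log2 fold change of the 15 tested genes was 0.92, against 0.00 over all tested genes. Elf5, a defining trophoblast factor that was named after its values were seen, stood at 0.0501 and 0.137 CPM in fusion cells. Elf5 had 0 counts in both wild-type libraries. It does not stand for the list, in which 7 tested genes were higher and 0 lower at an unadjusted p of 0.05 in edgeR. The part of trophectoderm cells in the Cdx2 values was not tested. Cdx1 and Cdx2 are intestinal regulators too. Of the 14 intestinal epithelium markers 3 were tested and Hnf4a, which primitive endoderm also uses, rose to 58.7 and 8.98 CPM in fusion, against 0.573 and 0.53 CPM in wild-type cells (log2 5.92, adjusted p = 0.0298, edgeR). That call was lost with no filter, in limma, against either control alone, and without the parental or the empty-vector library (adjusted p = 0.101 to 0.562), and DESeq2 called 1 marker of the list lower. The list summed to 31.2 and 9.42 TPM in fusion and 2.16 and 3.05 TPM in wild-type cells, Fabp2 and Hnf4g had 0 counts in all 4 libraries, and its part in the results was not tested. In the neural list Sox1 rose among 5 tested genes (6.16 and 4.06 CPM in fusion, 0.99 and 1.06 CPM in wild-type cells), and in the fibroblast list Pdgfrb rose among 8. The Sox1 call (adjusted p = 0.0468, edgeR) was lost in limma, against either control alone and without any 1 of the 4 libraries (adjusted p = 0.0584 to 0.195). In the neural list 2 genes were lower at an unadjusted p of 0.05, and DESeq2 called 1 higher and 2 lower. The neural list summed to 89.2 and 101 TPM in fusion and 89.6 and 100.4 TPM in wild-type cells, and the fibroblast list to 45.7 and 59.5 TPM in fusion and 36.4 and 24.6 TPM in wild-type cells.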

How the data were processed

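The library kit was a stranded one for mRNA, per the labels' protocols. The authors deposited a gene table per library with expected counts, TPM and FPKM, per the file headers; FPKM was not used. Per the submitters' processing notes the tools were STAR 2.7.10a, RSEM 1.3.3 and DESeq2 1.36.0, with GRCm38/mm10. Annotation release and strand setting: not given in the sources used here. Between 9.16% and 10.2% of the deposited expected counts (zeros included) are not whole, since RSEM shares out reads that map to several genes. Gene names and coordinates are from GENCODE M21 (GRCm38), which matched 55141 of 55401 identifiers.

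After rounding, expected counts went into edgeR 4.0.16 (R 4.3.3): TMM scaling, filterByExpr with a minimum count of 10, a robust quasi-likelihood fit of 2 fusion against 2 wild-type libraries, and Benjamini-Hochberg adjustment over 16511 genes. The test had 2 residual degrees of freedom, with a median of 5.04 prior degrees of freedom drawn from the spread of all tested genes. The common biological coefficient of variation was 25.6%. The SE is the absolute log2 fold change divided by the square root of the F statistic. The code was tested on simulated data. Pairs of single libraries were compared on log2 CPM with a prior count of 2, for genes whose higher library reached 1 CPM. Intervals for ratios of counts are exact binomial (95%).

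The alternatives changed the scaling (DESeq2's size factors or library totals), the filter (none, or 1 CPM in 2 libraries) and the fit (not robust); the others were DESeq2 1.42.0, limma 3.58.1 on log2(TPM + 1), each control alone, each library left out, and a floor of 5 CPM for pairs. The 10 genes and the 16 other lists were chosen with earlier results of these data known. From each list up to 4 genes past the threshold were named, by size of change, or else the 2 with the highest mean CPM. The 3 genes most like each called gene, whose mean reached 2 CPM, and its coding neighbours were named too. Evx1os, Elf5, Fabp2, Hnf4g and Wnt5a were named after their values were seen.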

Additional observations from a re-analysis of the deposited data

How the results depend on the processing

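Cdx1 kept its sign in all 13 alternatives (log2 5.27 to 7.20), but its adjusted p was 0.0545 with no filter and between 0.0917 and 0.13 when 1 control was used or left out. Wnt3a kept its sign too (1.07 to 4.10) and lost its call in 6 alternatives, while Tbx6 ranged over -0.51 (without fusion replicate 2) to 1.20 (without fusion replicate 1). Cdx2 kept its sign (1.66 to 3.74) and passed in 3 alternatives. Of the 10 genes, 4 were called in DESeq2, 1 in limma on TPM and 0 against the empty vector or the parental line alone; leaving out 1 library gave 0 to 3. With no filter 3 were called (Cdx2 and Wnt3a higher, T lower). Over all genes, 564 were called, against 1946 with no filter, 1363 in DESeq2, 322 in limma, 274 against the empty vector alone, 320 against the parental line alone, and 163 to 552 with 1 library left out (163 without fusion replicate 1). A floor of 5 CPM gave 5.41% of genes at least 2-fold apart between the empty-vector and parental libraries and 6.39% between fusion replicates 2 and 1. No paired analysis was possible because the wild-type labels carry no replicate numbers. With under 10 counts in a library, Cdx4 and Evx1 are limited by depth. The causes of these differences were not tested.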
